A study of Mus musculus with 6 samples.

Results

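The Ly49 receptors are encoded by the Klra genes of mouse chromosome 6, and 10 members, Klra1 to Klra10, were examined of 17492 protein-coding genes with an annotated start. The members were taken by name and matched to the deposited peak lists through the Entrez and Ensembl columns. The study profiled chromatin of splenic natural killer (NK) cells taken on day 5 of culture in IL-2 (500 ng/mL), which drives NK cells to divide and become active. KO cells came from Tcf7-/- mice (strain B6.129 Tcf7Tm1Cle), in which Tcf7, the gene for the transcription factor Tcf1, carries a targeted allele, and WT cells came from Tcf7+/+ mice (strain B6). Both genotypes thus shared the IL-2 culture, and they differed in labelled strain as well as in Tcf7. Genotype and strain therefore cannot be told apart here. The labels do not give the sex of the mice, and values at Y-linked genes given below differed between the genotypes. Sex thus cannot be told apart from genotype either. Chromatin was immunoprecipitated for Tcf1 or for H3K4me3, the histone modification found at promoters in use. The 4 resulting peak lists were analysed, 1 per genotype and antibody. No difference below therefore has a replicate check, and no test over samples could be made.

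Ly49 receptors are lectin-like proteins that each NK cell displays in a random-looking combination. Most are inhibitory: they bind MHC class I molecules on healthy cells and hold back killing through tyrosine phosphatases such as SHP-1. A few are activating and signal through the adaptor DAP12, the product of Tyrobp. In mice, Tcf1 is known for its role in the acquisition of Ly49A, the product of Klra1. The genes arose by duplication, the number of genes differs between mouse strains, and the copies resemble each other closely in sequence. RefSeq lists names of 129 strain alleles among the synonyms of Klra1 (Ly49o), Klra4 (Ly49r) and Klra8 (Ly49u).

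The promoters of the family show how close the copies are. A stretch of 29 bases near the start, running from tttcctc to ggag, was shared in outline by 8 of the 10 members. It is shown because the members differ there in whether they hold the Tcf/Lef core motif, which is in capitals (5′ to 3′ on the minus strand, RefSeq, GRCm38.p6).
Klra9: tttcctctttttgCTTTGTTgacaaggag
Klra3: tttcctctttttgctttggtgacgaggag
Klra7: tttcctctttttgCTTTGATgaagaggag
Klra6: tttcctctttttgCTTTGATgaagaggag
Klra5: tttcctccttttgcttagataaagaggag
Klra2: tttcctctttttgcttagatcaagaggag
Klra4: tttcctctttttgatttggtcaagaggag
Klra8: tttcctcttttcgatttggtcaagaggag

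The core motif was searched on both strands as 4 words: CTTTGAA, then CTTTGAT, then CTTTGTA, and also CTTTGTT, of which no pair can match on the same strand at the same base. Klra9, Klra7 and Klra6 held a match in the stretch, at positions -25, -76 and -106 from the start, and the other 5 did not. Klra7 held a further match at -121. The windows of Klra1 and Klra10 did not contain the stretch, nor did that at the second start of Klra7. For Klra1 only the window at its annotated start (130386874) was searched, so a match elsewhere in the gene would have been missed. The start used for Klra10 (130281928) lies inside the gene, which ends at 130283647, so sequence farther upstream there was not searched.

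Whole promoter windows, from 250 bases before to 50 after the start, are given for 4 members that differed in their H3K4me3 peaks (minus strand, GRCm38.p6, Tcf/Lef matches in capitals).
Klra9 (chr6:130193063-130193362): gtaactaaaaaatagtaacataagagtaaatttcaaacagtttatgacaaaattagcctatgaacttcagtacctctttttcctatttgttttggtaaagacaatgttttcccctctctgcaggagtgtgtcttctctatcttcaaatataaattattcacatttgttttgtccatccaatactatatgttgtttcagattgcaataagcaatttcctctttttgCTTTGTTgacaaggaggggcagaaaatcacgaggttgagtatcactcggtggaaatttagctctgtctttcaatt
Klra3 (chr6:130337577-130337876): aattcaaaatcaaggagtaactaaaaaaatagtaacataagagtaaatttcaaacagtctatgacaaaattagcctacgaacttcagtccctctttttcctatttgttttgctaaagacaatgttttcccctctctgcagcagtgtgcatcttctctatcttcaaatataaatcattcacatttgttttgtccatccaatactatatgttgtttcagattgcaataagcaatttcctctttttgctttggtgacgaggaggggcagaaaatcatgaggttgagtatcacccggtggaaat
Klra7 (chr6:130233273-130233572): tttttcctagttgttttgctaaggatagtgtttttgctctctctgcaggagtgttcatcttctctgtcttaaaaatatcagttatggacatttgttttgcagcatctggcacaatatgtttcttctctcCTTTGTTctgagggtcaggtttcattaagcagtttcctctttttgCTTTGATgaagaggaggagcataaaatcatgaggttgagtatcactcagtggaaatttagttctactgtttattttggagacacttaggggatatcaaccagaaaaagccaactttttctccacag
Klra4 (chr6:130067222-130067521): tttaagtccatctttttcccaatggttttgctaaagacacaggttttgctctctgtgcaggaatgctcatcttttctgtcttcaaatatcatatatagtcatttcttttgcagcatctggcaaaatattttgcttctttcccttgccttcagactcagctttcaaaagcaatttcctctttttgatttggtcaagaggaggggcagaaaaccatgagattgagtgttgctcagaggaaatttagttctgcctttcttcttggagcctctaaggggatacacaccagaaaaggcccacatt

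Of 12 windows for the 10 members (Klra7 and Klra8 have 2 annotated starts each), 4 held a Tcf/Lef core match (33.3%), against 3129 of 21263 windows of all protein-coding genes (14.7%). The windows with a match were those of Klra6, of Klra9 and of both starts of Klra7. The Runx core TGTGGT, searched likewise, was found in 1 member window, that of Klra1, and in 15% of all windows. A match is a run of letters and does not show that a factor binds there.

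Promoter sequence placed the members in groups. Klra3, Klra5, Klra6 and Klra9 resembled each other most, with 88.3 to 95.4% identical bases in local alignments, and the closest were Klra9 and Klra3 (271 of 284 aligned bases). The promoters of the activating receptor genes Klra4 and Klra8 formed another pair, at 86.6%. Among all 28 pairs of the 8 promoters with the stretch, identity ran from 66.8 to 95.4%. The window of Klra10 aligned only with that at the second start of Klra7 (78.9% over 242 bases), and the window at the annotated start of Klra1 aligned with no other member over 100 bases.

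**Figure D1:**
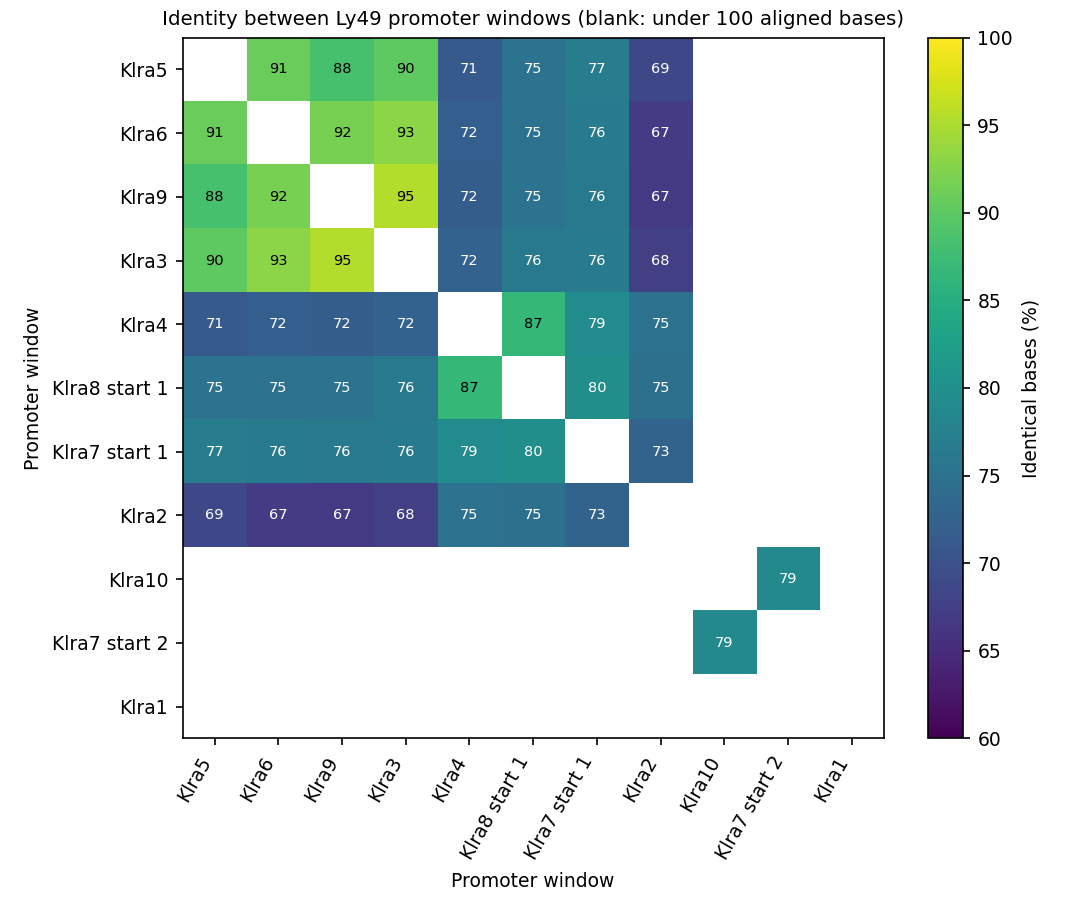
Each cell gives the percentage of identical bases in the local alignment of 2 promoter windows of 300 bases, for pairs with at least 100 aligned bases (the second start of Klra8 is left out, since its window overlaps the first). Klra3, Klra5, Klra6 and Klra9 form the block of highest identity (88.3 to 95.4%), and the row of Klra1 is blank.

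Reads of 100 bases were used in the study, so windows of that length were compared. No window of 100 bases in a member's promoter occurred unchanged in the promoter of another member or other protein-coding gene with an annotated start. Of all 17492 such genes, 1126 (6.44%) had a window shared with another gene. Pseudogenes of the family were not among the genes compared. The closest windows of Klra9 and Klra3 differed by 1 base, and 102 of 201 windows of Klra9 came within 5 mismatches of another member. The corresponding counts were 108 of 201 for Klra6, 99 for Klra5, 86 for Klra3 and 0 for the other members. How reads that match several places were treated is not given in the sources used here. This comparison covers promoter windows of the reference strain alone, not the gene bodies where several of the peaks below lay.

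For the series as a whole, the H3K4me3 lists held 11074 peaks with 7507763 tags in KO and 13771 peaks with 6635272 tags in WT. Tags are reads counted in a peak, and these sums are not sequencing depths. The authors' fold enrichment had a median of 18.38 in KO and 30.82 in WT, and the lowest tag count of a listed peak was 22 in KO and 17 in WT. A start without a listed peak can therefore still hold tags. At Tcf7 itself, a Tcf1 peak was absent from the KO list and held 123 tags in WT, while H3K4me3 at its start held 535 tags in KO and 525 in WT. H3K4me3 at the start does not check the knockout. Of 10 NK cell markers, 10 were marked by H3K4me3 in each library, against 48.2% of all genes in KO and 53.7% in WT. Of 8 T cell markers 0 were marked in KO and 2 in WT, of 6 B cell markers 0 in either, and of 6 myeloid markers 0 in KO and 1 in WT. Tags at these T cell and myeloid markers summed to 0 in KO, against 99 and 95 in WT. Of 5 erythroid markers 1 was marked in KO (227 tags) and 2 in WT (320 tags). The part of other cells in the results below was not tested.

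H3K4me3 was examined next. A member was called marked where a peak lay within 1 kb of an annotated start. In KO 3 of 10 members were marked, against 48.2% of all genes, and in WT 4 of 10 were marked, against 53.7% of all genes. Of the 10, 2 were marked in both libraries (48% of all genes), 1 in KO alone (0.166%), 2 in WT alone (5.66%) and 5 in neither (46.1%). Tags at marked members were few: 90 to 256 in KO, where marked genes had a median of 676, and 23 to 207 in WT, where the median was 503.

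**Figure D2:**
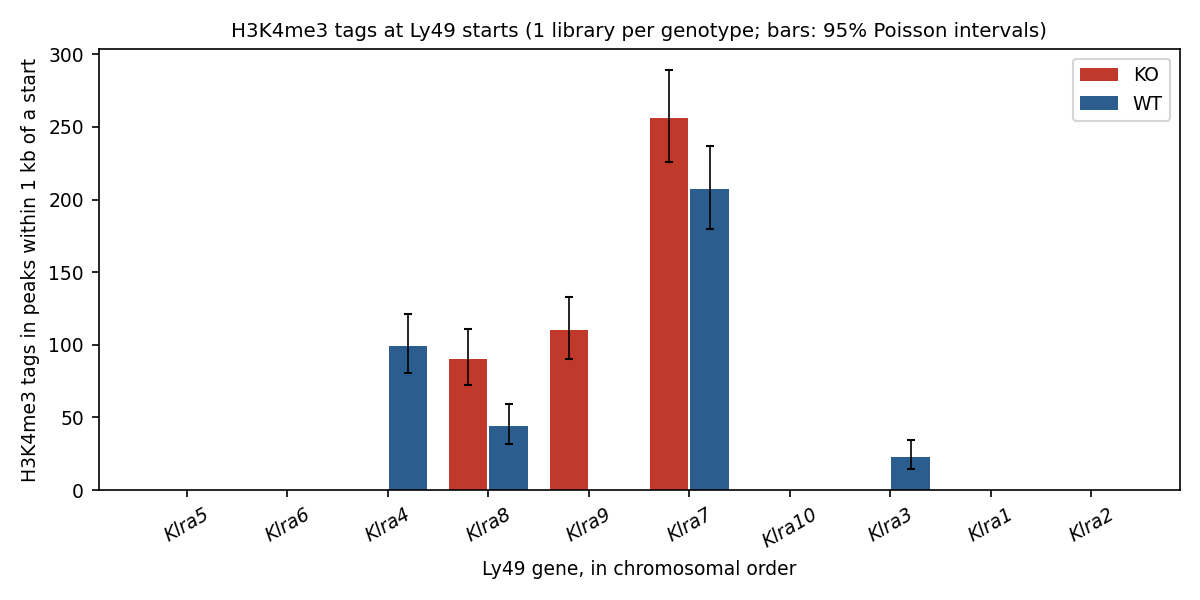
Bars give the H3K4me3 tags of peaks within 1 kb of an annotated start for each of the 10 members, in KO and WT (1 library each), with 95% Poisson intervals that cover counting error only. Klra9 stands in KO alone with 110 tags, and Klra4 (99) and Klra3 (23) in WT alone. Klra7, counted over both of its annotated starts, is highest in both libraries.

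The activating receptors came first. Klra4 encodes Ly49D, which signals through DAP12 (chromosome 6, 130043730 to 130067301, minus strand, start at 130067271). No H3K4me3 peak was listed in the gene in KO, whereas in WT a peak of 2706 bp covered its start with 99 tags (95% Poisson interval 80.5 to 121). A further WT peak of 67 tags began 2.505 kb downstream, with a score of 252.21 (scores are a scaled negative logarithm of MACS p-values). The authors' false discovery rate (FDR) was 0.03% for each of these peaks. The authors' Entrez column gives 2 further identifiers beside that of Klra4 for these peaks.

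Klra8 encodes Ly49H, which binds a protein of mouse cytomegalovirus and also signals through DAP12 (130115226 to 130129898, starts at 130129898 and 130129835). A peak over its start held 90 tags in KO (72.4 to 111) and 44 tags in WT (32 to 59.1). The KO peak was 2170 bp wide with an FDR of 2.65%, and the WT peak 1226 bp with an FDR of 0.11%. Relative to the median gene marked in both libraries, which had 1.21 times more tags in KO, the KO library's log2 ratio to WT was 0.76 (95% counting interval 0.23 to 1.32). The KO peak spanned 2 WT peaks, however, and the second of these, with 37 tags, lay 1012 bp from the nearest start, just outside the window. With it counted, the values were 90 tags in KO and 81 in WT, and the ratio was -0.12. Per kb of peak Klra8 had 41.5 tags in KO and 35.9 in WT, a centred ratio of -0.12. The authors' Entrez column gives 2 further identifiers for the Klra8 peaks in both lists, and 1 of them is that of Klra14-ps.

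Among the inhibitory receptors, Klra7 had the most tags when both of its annotated starts were counted. It encodes Ly49G, a receptor for MHC class I (130218605 to 130233322), with starts at 130233322 and 130231687. In KO a peak of 43 tags (FDR 19.67%) and one of 213 tags (0.2%) lay within 1 kb of a start. In WT there was one of 33 tags (0.35%) and one of 174 (0.03%). The sums were 256 in KO (226 to 289) and 207 in WT (180 to 237), over 4507 bp in KO and 4385 bp in WT. The centred log2 ratio was 0.04 (-0.23 to 0.31), and -0.06 per kb. With the start farthest upstream alone, Klra7 had 43 tags in KO and 33 in WT, and in KO Klra9 had more (110). None of these peaks covered either start: the larger peak lay 2.208 to 5.666 kb downstream of the first start in KO and 2.235 to 5.655 kb in WT. The smaller peaks began 0.438 kb downstream in KO and 0.649 kb in WT. Further WT peaks of 39 tags in the gene and 37 tags 3312 bp upstream of the gene had no KO counterpart.

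Klra9 encodes Ly49I, an inhibitory receptor that binds MHC class I (130178626 to 130194374, start at 130193112). A peak of 1748 bp covered its start in KO with 110 tags (90.4 to 133), a score of 315.96 and an FDR of 0.2%. No peak was listed in the gene in WT. It was 1 of 29 genes marked in KO alone, which had a median of 53 tags. The authors' Entrez column gives 1 further identifier for this peak.

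Klra3, the near copy of Klra9 in promoter sequence, showed the opposite. It encodes Ly49C, which also binds MHC class I (130323289 to 130337626, start at 130337626). No peak was listed in KO. In WT a peak of 812 bp held 23 tags (14.6 to 34.5), began 0.364 kb downstream of the start, and had a score of 54.04 and an FDR of 1.04%. Only 0.106% of marked WT genes had fewer tags. Reads of Klra3 and Klra9 can differ by as little as 1 base in 100, as given above, and the part of this likeness in their opposite marks was not tested.

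Klra5, which encodes Ly49E, a receptor known from fetal NK cells, had no peak within 1 kb of its start in either library. In KO it carried peaks of 83 tags (FDR 0.52%) and 50 tags (9.19%) inside the gene, 2.412 to 5.252 kb downstream of the start at 129913224. Neither overlapped a WT peak, and no WT peak was listed in the gene. With a window of 2.5 kb Klra5 became the second member marked in KO alone. The signal thus lay downstream of the annotated start, as did most peaks of Klra7 relative to its first start.

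The remaining members carried no H3K4me3 peak in the gene or at the start in either library. They were Klra1 (Ly49A, 130363918 to 130386874), Klra6 (Ly49F, 130013033 to 130026960) and Klra10 (Ly49J, 130269194 to 130283647), which encode inhibitory receptors. The last was Klra2 (Ly49B, 131198970 to 131247716), known from myeloid cells, which lies apart from the cluster. Klra1, the member linked to Tcf1 by earlier work in mice, was thus unmarked at its annotated start in both genotypes. The same 4 members were named in no row of any of the 4 lists.

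**Figure D3:**
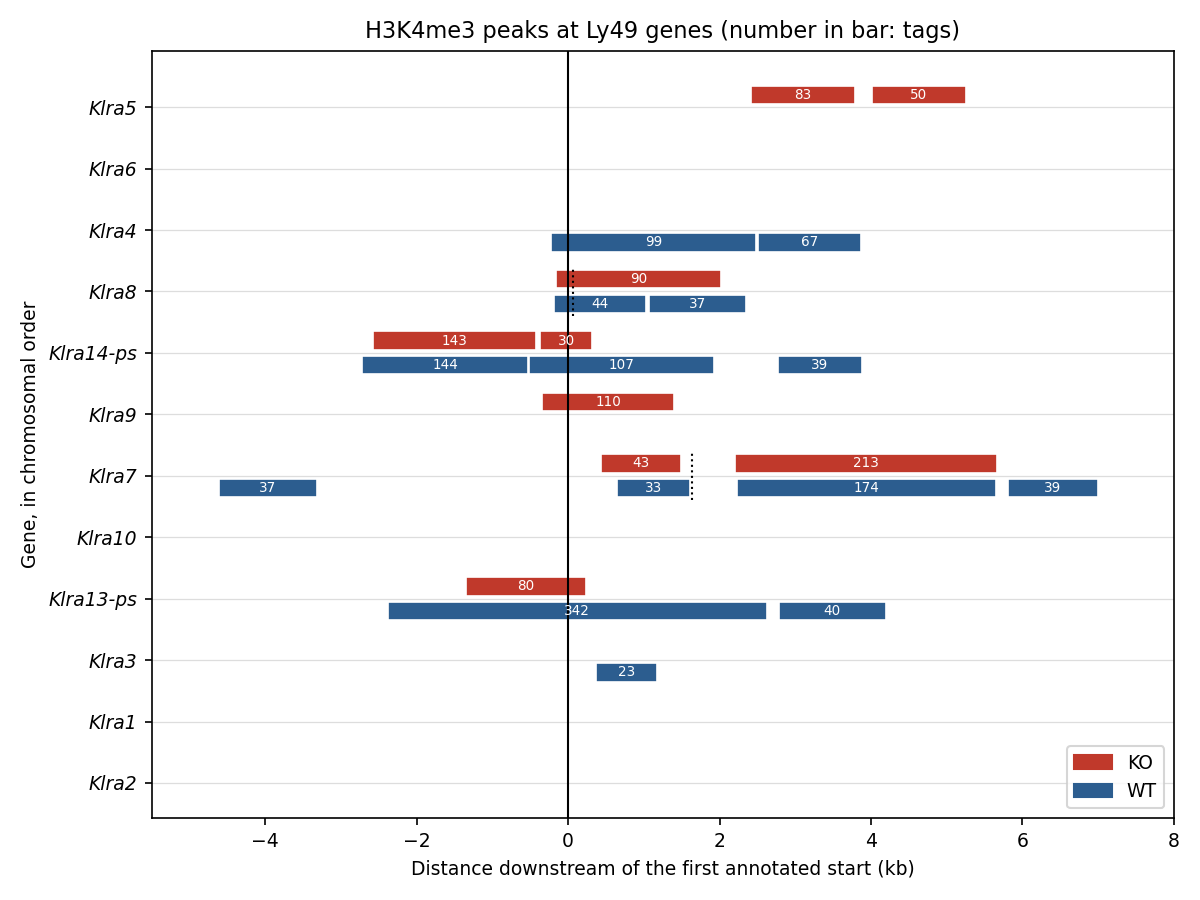
Rectangles show each H3K4me3 peak at the 10 members and at the pseudogenes Klra13-ps and Klra14-ps, by distance in kb downstream of the first annotated start (solid line; dotted lines mark second starts), with its tags, for KO above and WT below. The peaks at Klra5 and most of those at Klra7 lie downstream of the first start (1 WT peak of 37 tags at Klra7 lies upstream), Klra9 and Klra5 have peaks in KO alone, and Klra4 and Klra3 in WT alone.

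Over the whole locus, from Klra17 to Klra2 (129831154 to 131247716), 9 peaks with 842 tags over 15.5 kb were listed in KO, and 14 peaks with 1225 tags over 26.4 kb in WT. Of the 9 KO peaks 6 overlapped a WT peak, and of the 14 WT peaks 7 overlapped a KO peak. The share of all listed peaks that overlap between genotypes was not computed, so these counts cannot be read as particular to the locus. Per kb of peak the locus held 54.4 tags in KO and 46.3 in WT, against 298.8 and 218.6 over all peaks of the KO and WT lists. The FDR ran up to 20.87% in KO and up to 1.04% in WT.

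Much of the signal lay at pseudogenes of the family. At Klra13-ps (130291161 to 130306432) a peak of 1587 bp held 80 tags in KO and a peak of 5001 bp held 342 tags in WT. The FDR was 15.88% for the KO peak and 0.01% for the WT peak. This WT peak was the highest of the locus by tags and score (1442.31). The centred ratio was -2.37 (-2.74 to -2.01), and -0.76 per kb of peak. Of genes marked in both libraries, 1.32% lay below -1 with at least 100 tags in 1 library. At Klra14-ps (130149106 to 130160748) peaks at the start summed to 173 tags in KO and 251 in WT (-0.81, and -0.16 per kb). The part of it upstream of the start was nearly equal in raw tags, with 143 in KO and 144 in WT. These counts are not centred, and the median gene marked in both libraries had 1.21 times more tags in KO. No peak within 1 kb was listed at Klra11-ps, or at the start of Klra17, which encodes Ly49Q.

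Tcf1 peaks were then sought in each member and within 50 kb. The Tcf1 lists held 5139 peaks at a median FDR of 96.88% in KO and 866 peaks at 26.63% in WT. KO cells were labelled Tcf7-/-, so peaks of the KO list were not read as Tcf1 binding. In KO 2 of 10 members had a listed peak, against 20.8% of all genes, and in WT 0 of 10 had one, against 4.44% of all genes. The KO peak near Klra2 (131254382 to 131254896) held 29 tags at an FDR of 100% and lay 6.67 kb from the gene. The KO peak near Klra5 (129856756 to 129857258), inside Klra17, held 19 tags at an FDR of 97.02% and lay 41.7 kb away. Neither overlapped an H3K4me3 peak in either genotype, and neither reached a score of 100.

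In WT the nearest Tcf1 peak to Klra2 was 125 kb away (131373175 to 131373668, 40 tags). To the members of the cluster the nearest WT peaks were 986 kb (Klra1) to 1420 kb (Klra5) away. The promoters of Klra6, Klra7 and Klra9, which hold the Tcf/Lef core, had no Tcf1 peak within 50 kb in KO or WT. A peak list shows only what passed the peak caller, so weak binding was not detectable here.

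Genes of like pattern were ranked by the Euclidean distance over log2(tags + 1) and log2(width + 1) of H3K4me3 in the 2 libraries, with Ly49 genes left out. Nearest to Klra9 were the Y-linked genes Ddx3y (116 tags in KO and 0 in WT) and Eif2s3y (96 and 0), then 3110040M04Rik (126 and 0). The labels do not give the sex of the mice, so a difference in sex cannot be told apart from genotype. Nearest to Klra4 were Adra2a (0 tags in KO and 105 in WT), Dach1 (0 and 108) and Ppp2r2c (0 and 108). Nearest to Klra7 were Sytl3 (297 in KO and 257 in WT), Eps8l1 (267 and 244) and Nrp1 (277 and 259). Nearest to Klra8 were Als2cl and Tmie, with the same values (99 in KO and 46 in WT), and Gm33887 (125 and 48). Nearest to Klra3 were Gm11559, Galnt9 and 4931417E11Rik, each with 0 tags in KO and 24 in WT.

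Neighbours of the cluster were compared with it. The flanking genes Gabarapl1, which acts in autophagy (1040 tags in KO and 803 in WT, 0.10, and -0.03 per kb of peak), and Magohb, of the exon junction complex (743 and 557, 0.15), were marked in both genotypes close to the median gene. Of 53 other protein-coding genes with a start within 2 Mb of the cluster, 0 were marked in KO alone, against 0.166% of all genes. In WT alone 3 of the 53 were marked (5.66%), the same as the share over all genes (5.66%). The median ratio of the 15 marked in both was 0.04. The 3 were Klrc1, Klrc3 and Tspan9. Klrc1, which encodes the inhibitory receptor NKG2A, had 211 tags in WT, and Klrc3 had 62 tags in WT.

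The NKG2 and CD94 genes as a list were marked in 5 of 8 cases in KO and in 7 of 8 in WT, against 48.2% of all genes in KO and 53.7% in WT. All 5 marked in both had a ratio of tags below 0 (median -0.75, over all genes 0), but per kb of peak 2 of the 5 lay above 0, Klre1 (0.02) and Klrd1. Klrd1, which encodes CD94, had 236 tags in KO and 452 in WT (-1.21), but 0.23 per kb of peak. Of 21 NKR-P1 receptors, their ligands and other lectins of the region, 7 were marked in KO and 6 in WT, against the same shares of all genes, with a median ratio of 0.11. Klrg1, which encodes a cadherin-binding inhibitory receptor, was marked in KO alone with 158 tags.

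Partners of the receptors were marked in both libraries throughout, against 48% of all genes. Of 4 adaptors and kinases of activating Ly49 receptors, Tyrobp (614 tags in KO and 2581 in WT, -2.34) and Zap70 (210 and 568, -1.70) passed a centred ratio of 1 in size. Among all genes marked in both libraries, 1.32% lay below -1 with at least 100 tags in 1 library. Tyrobp lies beside Hcst, and 1 WT peak of 12523 bp served both. On regions merged over both libraries its values were 3261 tags in KO and 2581 in WT, and its ratio 0.07. Zap70 kept -1.71 on merged regions and had -0.50 per kb of peak.

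The 6 phosphatases and kinases of inhibitory signalling had a median ratio of -0.04 (3 above 0 and 3 below). Ptpn6, which encodes SHP-1, had 473 tags in KO and 451 in WT (-0.20), but 0.40 per kb of peak. The 7 genes of MHC class I and its loading had a median of 0.08, with H2-D1 at 0.05 (1935 tags in KO and 1551 in WT) and H2-K1 at -0.07 (1743 and 1520), or 0.11 per kb of peak. One of the 7, Nlrc5, was placed without a known strand. The 12 factors reported in Ly49 expression, among them Tcf7, had a median of -0.0029. None of these 3 lists held a gene beyond 1 in size.

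**Figure D4:**
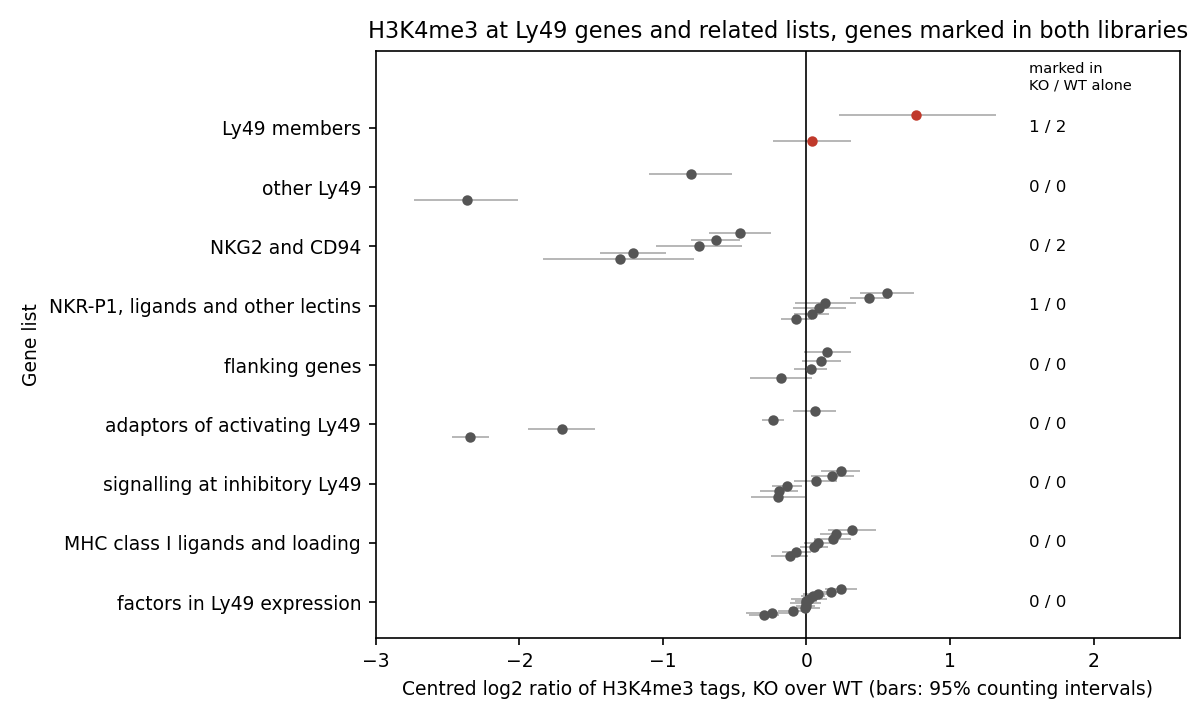
Points give the centred log2 ratio of H3K4me3 tags, KO over WT, for genes marked in both libraries, by list, with 95% counting intervals, and the numbers at the right count genes marked in KO alone and in WT alone. The 2 members marked in both (red) lie at 0.76 and 0.04, the 2 Ly49 pseudogenes below 0, and the factors and MHC class I genes near 0.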

How the data were processed

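H3K4me3 and Tcf1 peak lists of KO and WT NK cells were used, 1 per library, from reads that the labels give as 100 bases long. MACS 1.4, Bowtie2 2.1.0 and, as builds, GRCm38, mm10 and GRCh37 stand in the submitters' processing notes with no role for each, and the positions were read as GRCm38. Peak calling settings, the control track and the treatment of reads matching several places are not given in the sources used here. Each deposited list gives the count of tags per peak (not scaled to depth), a score (a scaled negative log10 of the p-value), a fold enrichment over background and an FDR in percent, per the file headers. Depth is unknown. Input libraries were not analysed here.

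Rows were reduced to distinct peaks and starts, which count from 0 (3 peaks start at 0), were converted to count from 1. Annotated starts, strands and promoter sequences came from RefSeq tables of GRCm38.p6, which gave starts for 17492 of 21900 protein-coding genes and for 10 of 10 members. Listed genes without one (27 of 107) were placed by their RefSeq and Ensembl ends, 15 with the strand of a deposited feature and 12 without. Tags of peaks within 1 kb of a start were summed and log2 ratios of KO over WT centred on genes marked in both. Ratio intervals are exact (Clopper-Pearson), assume Poisson counts and cover counting error only. Promoters were aligned locally (match 1, mismatch -1, gap opening -3, extension -1). Protein sequences were not used here, although a comparison of them was planned. Ratios and marking were tested on simulated data. The simulated libraries shared the same peaks, so the effect of peaks called separately in each library was not tested.

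The members, lists and the rule for named genes were chosen with earlier results of these data known. The rule named all members and every Tcf1 peak within 50 kb of them. From the lists of the NK gene complex and of the pathway, but not from the cell marker lists, it named Tyrobp, Ptpn6, H2-D1, H2-K1, Gabarapl1, Magohb and Klra17, genes marked in 1 genotype alone, and genes whose ratio passed 1 in size where either library held 100 tags. It also named the 3 genes most like each marked member. Klra14-ps, Klra11-ps, Klre1, Hcst, Nlrc5, Tcf7 and Tspan9 were named beside it after their values were seen. Computation used Biopython 1.88, scipy 1.17.1, pandas 2.3.3, numpy 2.4.6 and matplotlib 3.10.9 under Python 3.11.15.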

Additional observations from a re-analysis of the deposited data

How the results depend on the processing

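Counts of marked members rest on few weak peaks. Members marked in KO (3) stayed within 2 to 4 under every alternative tried, and those marked in WT (4) came to 2 when a peak had to cover the start, where Klra7 was lost in both genotypes, and 2 with lists of equal length. Members marked in KO alone (1) came to 2 with a window of 2.5 kb, where Klra5 was added, and 2 with lists of equal length, where Klra8 lost its WT peak. At an FDR of at most 1% Klra8 lost its KO peak and Klra3 its WT peak. Members marked in WT alone (2) came to 1 with a peak over the start, with scores of at least 100 and with lists of equal length, and Klra3 was lost in each of these cases. Klra9 in KO alone and Klra4 in WT alone held under all of them. The ratio of Klra8 was -0.117 with a window of 2.5 kb, -0.118 on merged regions and -0.116 per kb of peak. The widths at Klra7 were 1048 bp in KO and 964 bp in WT when the nearest peak alone was taken. The 2 members near a KO Tcf1 peak came to 1 within 10 kb and 0 with scores of at least 100, while the WT count was 0 at 10, 50 and 100 kb. The sign of Klra7 turned per kb of peak (-0.057) and at an FDR of at most 1% (-0.234), and its ratio was 0.287 with lists of equal length. Among named genes, Klrd1 turned to 0.231, Ptpn6 to 0.4, H2-K1 to 0.107 and Gabarapl1 to -0.026 per kb of peak, and Tyrobp to 0.068 on merged regions. Using the start farthest upstream alone, and merged regions for listed genes, were added after the data were seen. In the 2 libraries depth is unknown, and tags below the peak caller's threshold cannot be seen. No paired analysis was possible because each group held 1 library.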
